A study of Mus musculus with 6 samples.

Results

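The transcripts described here encode receptors for adrenaline and noradrenaline and the relay behind them in the heart muscle cell. They are the beta-1 and both abundant alpha-1 adrenergic receptors (Adrb1, Adra1a and Adra1b), the G protein alpha subunits Gnas, Gnaq and Gna11, the cardiac adenylyl cyclases Adcy5 and Adcy6, the catalytic subunit of protein kinase A (Prkaca) and the G protein brake Rgs2. The genes were listed by symbol, and all 10 were found among the 13384 genes of the count table. Bulk polyA RNA of the left ventricle was sequenced in 3 libraries from Cygb(-/-) mice (KO), which carry a global deletion of the cytoglobin gene, and in 3 libraries from Cygb(+/+) mice (WT). Sex, strain and age beyond adult are not in the labels. Both genotypes were adult and carried a subcutaneous pump that delivered angiotensin II, a pressor peptide, at 1.5 mg/kg/day for 2 weeks. No mouse without angiotensin II was analysed here, so each difference is between genotypes under infusion. Cygb itself was not analysed here, and the genotype is that of the labels.

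Beta-1 receptors couple to the stimulatory G protein encoded by Gnas, which switches on adenylyl cyclase. The cyclic AMP formed releases the catalytic subunits of protein kinase A, and these phosphorylate calcium channels and sarcomere proteins so that the heart beats faster and harder. Alpha-1 receptors, like the receptor for angiotensin II, couple instead to the Gq family encoded by Gnaq and Gna11, which drives phospholipase C, calcium release and growth of the muscle cell. Rgs2 speeds the switching off of Gq proteins and is known as a brake on this growth signal.

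Libraries held between 23190864 and 30354857 counts, and the 10 genes between 232 and 28692 counts per library. Levels are CPM, counts relative to the library's total after scaling of library sizes by TMM. A difference is a log2 fold change, KO minus WT. Its standard error (SE) is approximate, the absolute difference divided by the square root of the F statistic of edgeR's quasi-likelihood test. All 7 ventricular muscle markers listed for the tissue check were at 2160 CPM or more in every library. WT replicate 1 stood apart in markers of atrial muscle, with a sum of 753 CPM for 3 genes against 32.7 to 75.6 CPM in the other 5 libraries. WT replicate 2 stood apart in markers of activated fibroblasts, with a sum of 611 CPM for 4 genes against 126 to 203 CPM elsewhere.

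None of the 10 genes passed edgeR's test at an adjusted p of 0.05, where 0.112% of all genes passed. At an unadjusted p under 0.05, 2 were higher and 1 lower, which is 30.0% of the 10 genes against 19.4% of all genes (10.3% higher and 9.09% lower). The 3 KO libraries did not overlap the 3 WT libraries for the same 3 genes, Adra1a, Rgs2 and Adcy5, against 22.3% of all genes. DESeq2 called 2 of the 10 higher, Adra1a and Rgs2, and none lower, where it called 2.63% of all genes higher and 1.99% lower. limma-voom called none of the 10 and 0.12% of all genes. At an adjusted p of 0.1 edgeR called 1 of the 10 higher, Adra1a, against 1.61% of all genes. The median difference over the 10 genes was -0.05, and over all genes it was -0.0046. The 10 genes had 3 differences above 0, or 7 and a median of 0.08 once the dependence of counts on GC content and transcript length was taken out in each library, called the composition correction below.

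**Figure D1:**
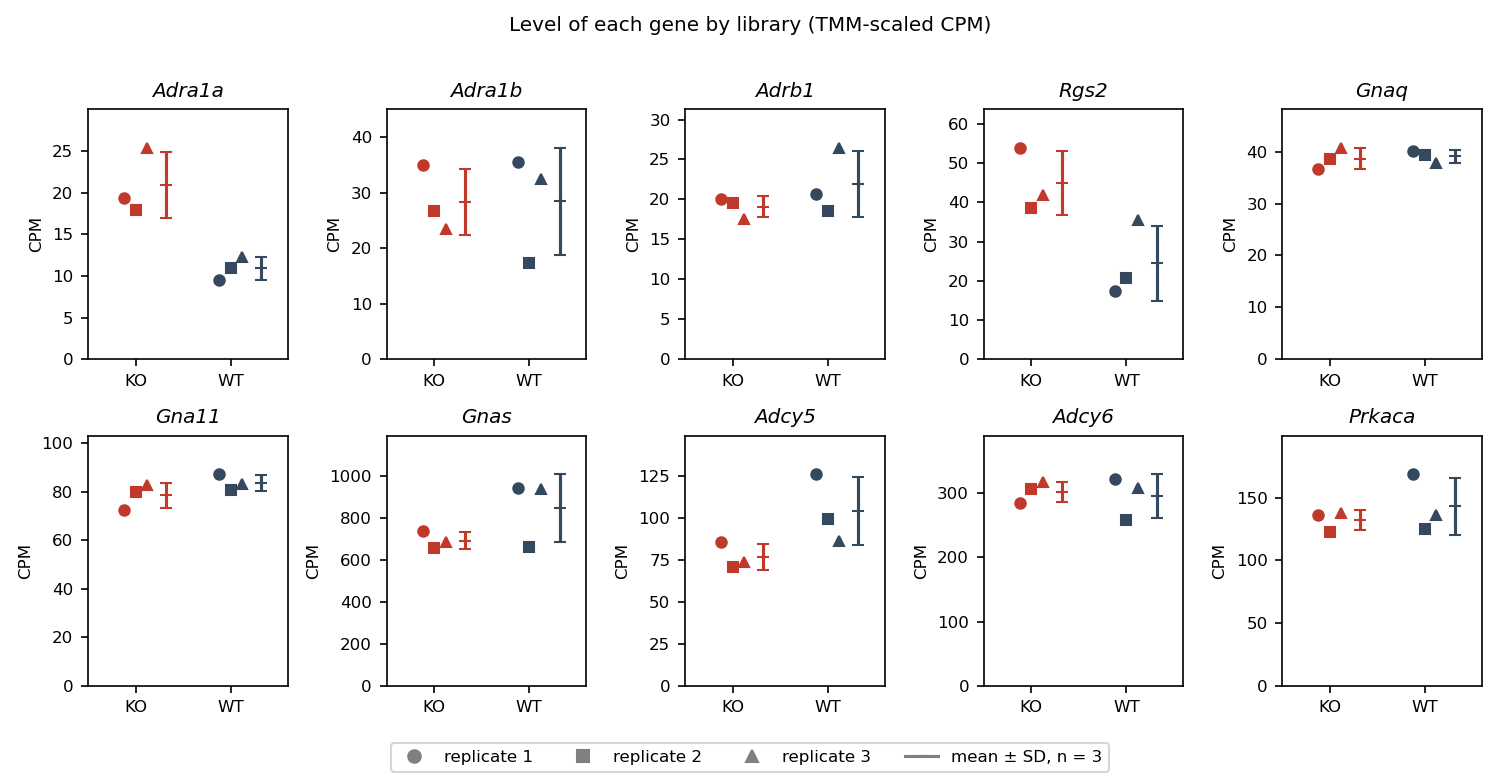
Level of each of the 10 genes in CPM (vertical axes from 0) for the 3 KO and 3 WT libraries, with a marker shape for each replicate number and a bar for mean ± SD. Adra1a lies at 17.9 to 25.4 CPM in KO and 9.55 to 12.3 CPM in WT libraries, and the groups are also separate, more narrowly, for Rgs2 and Adcy5.

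Adra1a, the alpha-1A receptor, had the smallest p-value of the 10 genes and ranked 29 of 13384. It was at 19.4, 17.9 and 25.4 CPM in KO replicates 1, 2 and 3, against 9.55, 10.9 and 12.3 CPM in WT replicates 1, 2 and 3. Every KO library lay above every WT library, and the lowest KO value was well clear of the highest WT value. Means were 20.9 ± 3.94 CPM in KO and 10.9 ± 1.35 CPM in WT (SD, n = 3 each), a 1.91-fold difference (log2 fold change 0.93, SE 0.17, edgeR adjusted p = 0.0565). The adjusted p missed the threshold, and over 18 alternatives it ran from 0.00045 in DESeq2 to 0.291 without KO replicate 3, with the difference between 0.77 and 1.03. It was below the threshold without WT replicate 2 (edgeR adjusted p = 0.00977), a fit that called 7.34% of all genes higher. It was also below it with the composition correction (0.91, edgeR adjusted p = 0.0475), where 0.187% of all genes were higher.

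The paralogue Adra1b, the alpha-1B receptor, showed no such separation. It was at 34.9, 26.6 and 23.5 CPM in KO replicates 1, 2 and 3, against 35.6, 17.4 and 32.4 CPM in WT replicates 1, 2 and 3. The groups overlapped, and WT replicate 2 was the lowest library. The means were 28.3 ± 5.87 CPM in KO and 28.4 ± 9.72 CPM in WT (SD, n = 3 each; log2 fold change -0.0053, SE 0.25, edgeR adjusted p = 0.993). Within a library, Adra1a had 0.557, 0.674 and 1.08 counts per Adra1b count in KO replicates 1, 2 and 3, against 0.269, 0.627 and 0.379 in WT replicates 1, 2 and 3. These ratios overlapped between the groups. On the log2 scale the ratio differed by 0.89 (two-sided exact permutation p = 0.2, and 0.2 adjusted over the 4 ratios tested), in a design of 3 against 3 that cannot go below p = 0.1.

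Adrb1, the main receptor through which noradrenaline drives rate and force in the heart, was at 20.1, 19.6 and 17.6 CPM in KO replicates 1, 2 and 3. In WT replicates 1, 2 and 3 it was at 20.7, 18.5 and 26.5 CPM. The groups overlapped, and only WT replicate 3 lay clearly above the KO libraries. The difference was within the spread between libraries (log2 fold change -0.20, SE 0.16, edgeR adjusted p = 0.513), and its sign turned with the composition correction (0.09). A pair of further adrenergic receptors was low. Adra1d was at 4.91 ± 1.37 CPM in KO and 7.17 ± 4.54 CPM in WT, and Adra2b at 1.30 ± 0.190 CPM in KO and 1.32 ± 0.172 CPM in WT (SD, n = 3 each). Neither passed the test, and their groups overlapped.

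Rgs2, the brake on Gq proteins, was at 54.0, 38.6 and 42.0 CPM in KO replicates 1, 2 and 3, against 17.4, 20.8 and 35.5 CPM in WT replicates 1, 2 and 3. KO libraries were all above WT libraries, but WT replicate 3 lay close to the lowest KO library and far from the other WT libraries. The means were 44.9 ± 8.09 CPM in KO and 24.5 ± 9.60 CPM in WT (SD, n = 3 each), a 1.82-fold difference (log2 fold change 0.87, SE 0.25, edgeR adjusted p = 0.119). Without WT replicate 3 the difference was 1.23 and was below the threshold (edgeR adjusted p = 0.0408), in a fit that called 0.0523% of all genes higher. DESeq2 also called it (adjusted p = 0.0122), and over 18 alternatives the adjusted p ran from 0.0122 to 0.406 and the difference from 0.67 to 1.23. With the composition correction it was 0.76 (edgeR adjusted p = 0.254).

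RefSeq promoter windows on GRCm38.p6 were found for 8 of the 10 genes, and the windows of Rgs2 and Adcy5 are shown because these genes had the largest differences in each direction among those 8. Each holds the 250 bases before the transcription start, 5′ to 3′ on the gene's strand. Rgs2 lies on the minus strand, at chr1:144004150-144004399. Adcy5 lies on the plus strand, at chr16:35154614-35154863. Capitals mark the motif TGACG on either strand (CGTCA where it lies on the other strand), the core of the cyclic AMP response element bound by CREB.
Rgs2: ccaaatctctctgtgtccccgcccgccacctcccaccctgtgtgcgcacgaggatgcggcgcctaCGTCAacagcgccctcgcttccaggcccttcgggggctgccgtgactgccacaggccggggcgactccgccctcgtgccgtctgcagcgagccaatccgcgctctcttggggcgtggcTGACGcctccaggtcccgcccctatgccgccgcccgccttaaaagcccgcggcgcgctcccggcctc
Adcy5: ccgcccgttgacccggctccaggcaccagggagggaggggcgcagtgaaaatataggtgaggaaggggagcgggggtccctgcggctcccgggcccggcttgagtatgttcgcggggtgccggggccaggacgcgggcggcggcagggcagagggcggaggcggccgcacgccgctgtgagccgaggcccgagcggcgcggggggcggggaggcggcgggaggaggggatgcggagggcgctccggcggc
The Rgs2 window holds TGACG at 2 places and the Adcy5 window at 0. Of the 32851 RefSeq windows of this length, 17.8% hold it at least once. The full element TGACGTCA, which holds TGACG on both strands, was in none of the 13 windows of these genes and in 1.55% of all windows. Windows of Adrb1, Gnas and Prkaca also hold TGACG, and Prkaca, at a difference of -0.12, has a window with 2 places. Of the 13 windows 6 hold it, from 4 of the 8 genes, and some of the Gnas windows overlap each other.

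The nearest profiles to that of Rgs2 over the 6 libraries came from genes at low or moderate levels. Likeness was the root mean square difference of log2 CPM, each gene centred on its own mean, over 13002 genes. Zfp808, a zinc-finger gene, was nearest with a difference of 0.127, and it was at 1.63, 1.17 and 1.41 CPM in KO replicates 1, 2 and 3, against 0.535, 0.737 and 0.983 CPM in WT replicates 1, 2 and 3. Its value in WT replicate 1 lay at the lowest count of that library. Each of the other genes described had a closer nearest gene, at 0.013 to 0.086. Hif3a, a hypoxia-inducible factor subunit, followed at 0.153 and the mitotic kinase gene Aurkb at 0.156. The interferon-induced chemokine gene Cxcl9 was at 0.199 and the immunoproteasome subunit gene Psmb9 at 0.201. For Adra1a the nearest was Nemp1, a nuclear envelope gene, at 0.086.

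The alpha subunits that Rgs2 acts on were at like levels in both genotypes. Gnaq was at 36.6, 38.7 and 40.8 CPM in KO replicates 1, 2 and 3, against 40.2, 39.3 and 37.9 CPM in WT replicates 1, 2 and 3 (log2 fold change -0.015, SE 0.12, edgeR adjusted p = 0.960). Gna11 was at 72.7, 79.9 and 82.8 CPM in KO replicates 1, 2 and 3, against 87.4, 80.6 and 83.1 CPM in WT replicates 1, 2 and 3 (-0.093, SE 0.12, edgeR adjusted p = 0.690). Both pairs of groups overlapped, and Gnaq had the narrowest spread of the 10 genes around its mean in WT. With the composition correction Gnaq was at -0.17 and Gna11 at 0.12, so the sign of Gna11 turned. There were 0.503, 0.485 and 0.493 Gnaq counts per Gna11 count in KO replicates 1, 2 and 3, against 0.460, 0.487 and 0.456 in WT replicates 1, 2 and 3 (log2 difference 0.08, two-sided exact permutation p = 0.2, adjusted 0.2).

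Gnas, which encodes the stimulatory alpha subunit and was the most abundant of the 10 genes, was at 736, 657 and 683 CPM in KO replicates 1, 2 and 3. In WT replicates 1, 2 and 3 it was at 943, 662 and 940 CPM. WT replicate 2 lay within the KO range and the other 2 WT libraries lay above it. The means were 692 ± 40.0 CPM in KO and 848 ± 162 CPM in WT (SD, n = 3 each; log2 fold change -0.29, SE 0.15, edgeR adjusted p = 0.295). Without WT replicate 2 it was -0.44 and below the threshold (edgeR adjusted p = 0.0225), where 6.49% of all genes were lower, and with the composition correction it was -0.07. The Gnas locus is imprinted and gives several transcripts, and its annotated span overlaps genes on the opposite strand, Nespas and Gm20721. Whether the counting used strand is not given in the sources used here, so their reads cannot be told apart.

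The adenylyl cyclases differed from each other in their values. Adcy5 was at 85.5, 70.7 and 73.4 CPM in KO replicates 1, 2 and 3, against 126, 99.2 and 85.9 CPM in WT replicates 1, 2 and 3. All KO libraries were below all WT libraries, with KO replicate 1 and WT replicate 3 almost touching. The means were 76.5 ± 7.90 CPM in KO and 104 ± 20.3 CPM in WT (SD, n = 3 each), a 1.35-fold difference (log2 fold change -0.44, SE 0.15, edgeR adjusted p = 0.155). It was not below the threshold in any of 18 alternatives (adjusted p from 0.0727 to 0.482, difference from -0.56 to -0.27), and it was -0.27 without WT replicate 1, the library with atrial markers.

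Adcy6 was at 285, 306 and 317 CPM in KO replicates 1, 2 and 3, against 323, 258 and 308 CPM in WT replicates 1, 2 and 3. The groups overlapped (log2 fold change 0.03, SE 0.13, edgeR adjusted p = 0.919). Adcy5 had 0.300, 0.231 and 0.232 counts per Adcy6 count in KO replicates 1, 2 and 3, against 0.390, 0.385 and 0.278 in WT replicates 1, 2 and 3. KO replicate 1 lay above WT replicate 3, so the ratios overlapped (log2 difference -0.46, two-sided exact permutation p = 0.2, adjusted 0.2).

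Prkaca, the main catalytic subunit of protein kinase A in heart, was at 136, 123 and 138 CPM in KO replicates 1, 2 and 3, against 169, 125 and 136 CPM in WT replicates 1, 2 and 3. The groups overlapped, and WT replicate 1 was the highest library (log2 fold change -0.12, SE 0.14, edgeR adjusted p = 0.660); without that library the difference was 0.02, and with the composition correction 0.07. The other catalytic subunit, Prkacb, was at 72.2 ± 8.30 CPM in KO and 60.7 ± 4.17 CPM in WT (SD, n = 3 each; 0.25, SE 0.13, edgeR adjusted p = 0.309). The ratio of Prkaca to Prkacb was 1.82, 1.95 and 1.74 in KO replicates 1, 2 and 3, against 2.61, 2.05 and 2.42 in WT replicates 1, 2 and 3. It was the only one of the 4 ratios whose groups did not overlap (log2 difference -0.35, two-sided exact permutation p = 0.1, the smallest this design allows, adjusted 0.2). The ratios were taken from counts without the composition correction. With it Prkacb was at 0.12, close to Prkaca at 0.07, so the 2 subunits differed little from each other.

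**Figure D2:**
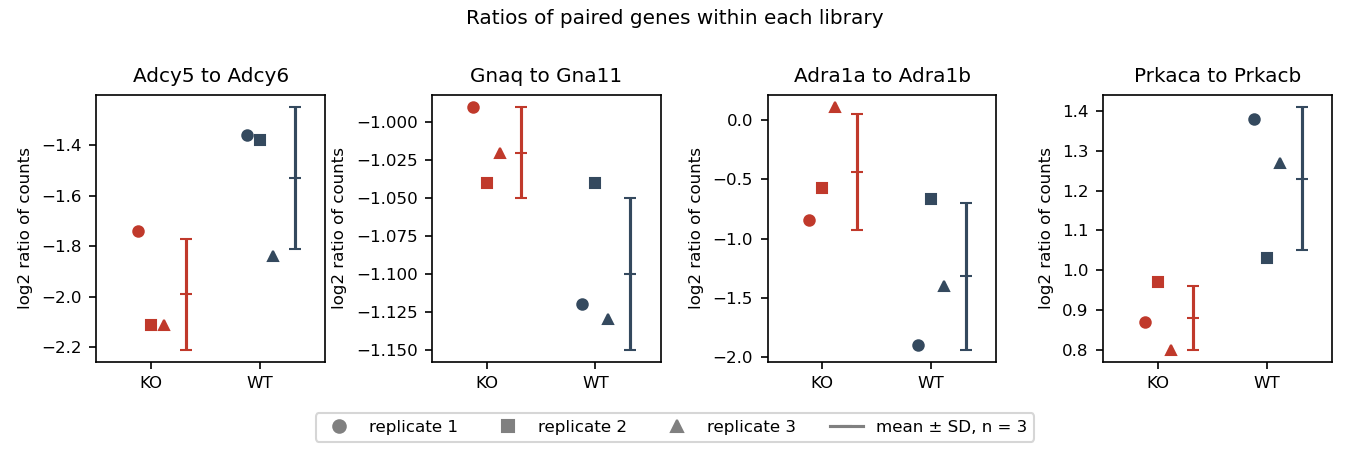
Log2 ratio of the counts of 2 genes in the same library, for 4 pairs, in 3 KO and 3 WT libraries with mean ± SD; each panel has its own vertical axis, which does not start at 0. KO libraries are all below WT libraries for Prkaca to Prkacb, and the groups overlap for the other 3 pairs.

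**Figure D3:**
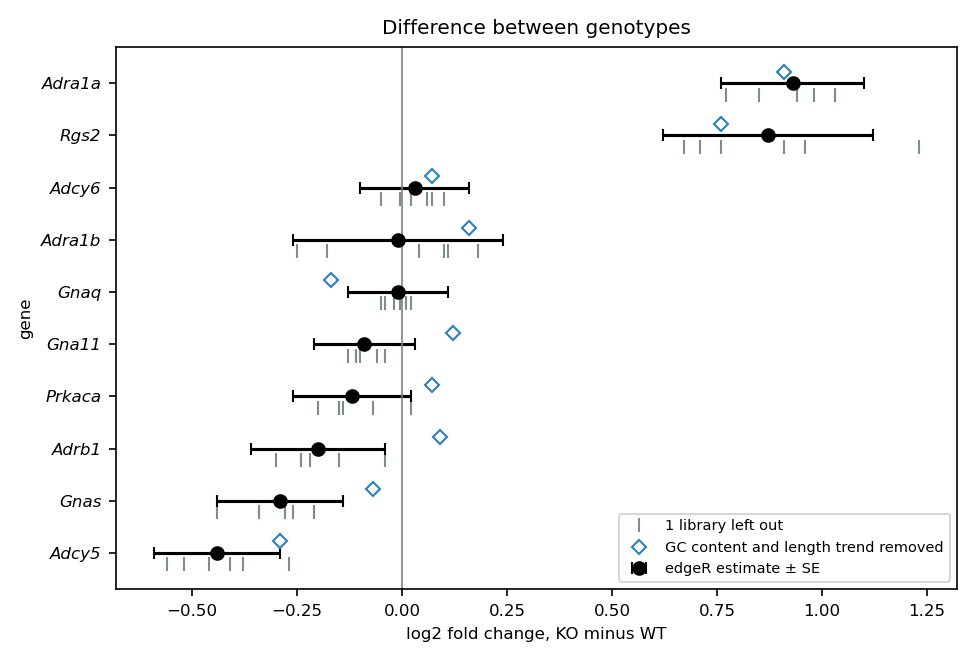
Log2 fold change, KO minus WT (horizontal axis), of the 10 genes with the edgeR estimate ± SE (circles), the values with each library left out in turn (ticks) and the value with the composition correction (diamonds). Adra1a and Rgs2 are above 0 and Adcy5 and Gnas below 0 under each of these settings, while Adrb1, Gna11, Prkaca and Adra1b turn sign with the correction.

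Levels were compared between genes only per kb of the longest annotated transcript. On that scale Gnas was highest, at 175 ± 10.1 CPM per kb in KO and 215 ± 40.9 CPM per kb in WT (SD, n = 3 each). Prkaca followed at 58.1 ± 3.54 in KO and 63.0 ± 9.89 in WT, then Adcy6 at 50.1 ± 2.69 in KO and 49.1 ± 5.66 in WT. These neighbours did not overlap, narrowly, with the lowest Prkaca library at 54.0 and the highest Adcy6 library at 53.4 CPM per kb. Gna11 was next, at 23.0 ± 1.52 CPM per kb in KO and 24.5 ± 1.01 CPM per kb in WT. Below it the order of the means differed by genotype. In KO, Rgs2 at 14.9 ± 2.68 was above Adcy5 at 10.9 ± 1.13. In WT, Rgs2 at 8.13 ± 3.18 was below Adcy5 at 14.8 ± 2.90. Rgs2 was above Adcy5 in each KO library and below it in each WT library. In WT replicate 3 the genes almost touched, with Rgs2 at 11.7 and Adcy5 at 12.3 CPM per kb. The order of these genes depends on the transcript length used for each. Adra1b, Adrb1 and Gnaq lay close together, between 5.21 and 10.7 CPM per kb over all libraries. Adra1a was lowest in both genotypes, at 4.88 ± 0.920 in KO and 2.55 ± 0.316 in WT.

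**Figure D4:**
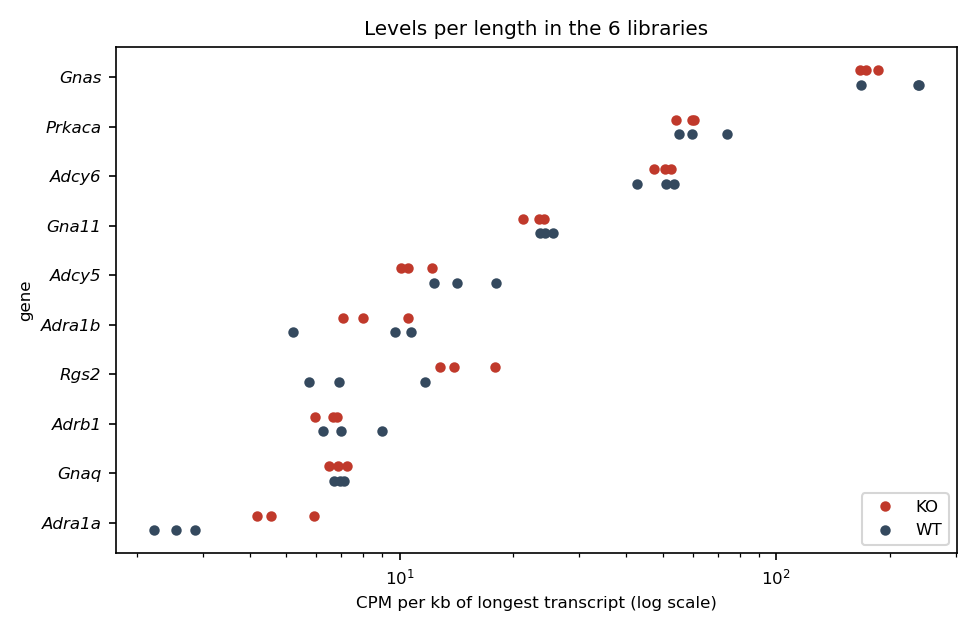
CPM per kb of the longest transcript (horizontal axis, log scale) of the 10 genes in the 3 KO libraries (upper row of each gene) and the 3 WT libraries (lower row). Genes are ordered by their WT mean, from Gnas at 215 to Adra1a at 2.55 CPM per kb. Rgs2 sits above Adcy5 in each KO library and below it in each WT library, but almost level with it in WT replicate 3 (11.7 and 12.3).

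The wider pathway was read through 13 lists, together 140 measured genes besides the 10. No list member passed edgeR's test over all genes (0.112% of all genes did). In all, 23 were higher and 12 lower at an unadjusted p under 0.05, which is 25.0% of the 140 against 19.4% of all genes; 70 were above 0 and 70 below, with a median of 0.0. The groups did not overlap for 18.6% of the 140, against 22.3% of all genes. With the composition correction the medians of Gq effectors (-0.0033), CREB genes (-0.0044), RGS genes (0.05) and other adrenergic receptors (0.04) lay on the other side of 0 from those given here.

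Proteins that hold or destroy the cyclic AMP signal had the highest medians without the composition correction, but with it the anchoring proteins (0.09) lay below receptor kinases and arrestins (0.13) and other protein kinase A subunits (0.12). Of 10 A-kinase anchoring proteins, which tether protein kinase A to its sites in the cell, 9 were above 0, with a median of 0.32 and 6 higher at an unadjusted p under 0.05, against 10.3% of all genes. Akap9 was at 67.0 ± 8.02 CPM in KO and 46.0 ± 8.54 CPM in WT (0.54, SE 0.15, edgeR adjusted p = 0.108), and Akap11 and Akap6 followed at 0.50 and 0.37. With the composition correction 7 of 10 were above 0, and Akap9 was at 0.20, Akap11 at 0.16 and Akap6 at -0.0042. Without WT replicate 2, edgeR called 4 of the 10 higher, where it called 7.34% of all genes higher. Of 17 cyclic nucleotide phosphodiesterases, the enzymes that break cyclic AMP and cyclic GMP down, 11 were above 0 (median 0.30; 0.19 with the correction). Pde3a, a main cyclic AMP phosphodiesterase of heart muscle, was at 39.4 ± 9.74 CPM in KO and 23.8 ± 5.90 CPM in WT (0.73, SE 0.21, edgeR adjusted p = 0.117), and Pde7b and Pde7a were at 0.56 and 0.52. The Pde3a groups overlapped, and with the composition correction Pde3a was at 0.33, Pde7b at 0.31 and Pde7a at 0.29.

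Among substrates of protein kinase A in muscle, 3 of 11 were above 0 and 8 below (median -0.19, and 0.05 with the composition correction). Rrad, an inhibitor of the L-type calcium channel that protein kinase A relieves, was at 222, 240 and 153 CPM in KO replicates 1, 2 and 3, against 425, 292 and 439 CPM in WT replicates 1, 2 and 3. All KO values were below all WT values (-0.91, SE 0.19, edgeR adjusted p = 0.0656). The ryanodine receptor gene Ryr2 was on the other side, at 2400 ± 384 CPM in KO and 1480 ± 233 CPM in WT (0.70, SE 0.16, edgeR adjusted p = 0.0711), and Hspb6, a small heat shock protein, was at -0.42. Ryr2 was at 0.43 and Hspb6 at -0.23 with the composition correction. Of 7 other protein kinase A subunits and inhibitors 4 were above 0 (median 0.23), with the inhibitor Pkia at 0.44 (SE 0.14, edgeR adjusted p = 0.135; 0.23 with the composition correction) and Prkar2b at 0.48 (0.26 without WT replicate 1).

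Of 19 other G protein subunits 8 were above 0 (median -0.08). Gng7, a gamma subunit, was at 1.84, 1.62 and 2.82 CPM in KO replicates 1, 2 and 3, against 1.03, 0.737 and 0.524 CPM in WT replicates 1, 2 and 3, without overlap but at low levels (1.47, SE 0.36, edgeR adjusted p = 0.0773). The Gng7 value in WT replicate 3 lay at the lowest count of that library. Gnb2 and Gng11 were at -0.39 and -0.34, and with the composition correction at -0.04 and -0.20. Other adenylyl cyclases had a median of -0.26 over 5, with Adcy4 at 31.1 ± 5.64 CPM in KO and 45.8 ± 8.83 CPM in WT (-0.56, SE 0.17, edgeR adjusted p = 0.124), Adcy7 at -0.51 and Adcy9 at 0.53. Adcy7 was high in WT replicate 2 alone and was at -0.09 without it, and Adcy9 was low in WT replicate 3 and was at 0.21 without it. Of 11 other RGS genes 5 were above 0 (median -0.08), with Rgs5 at 0.47, Rgs16 at -0.73 and Rgs17 at 0.56. Rgs5 was at 0.27 without WT replicate 3, and with the composition correction Rgs5 was at 0.28 and Rgs17 at 0.16. Rgs5 is also a pericyte marker, but the other pericyte markers listed did not follow it, with Kcnj8 at -0.42, Cspg4 at -0.54 and Abcc9 at 0.06. Receptor kinases and arrestins, which desensitise the receptors, had a median of -0.06 over 7, and it was 0.13 with the composition correction; Grk3 was at 0.34 (0.22 with the correction), Grk5 at -0.31 (-0.14 without KO replicate 3) and Grk2 at -0.18 (0.02 with the correction).

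Effectors of Gq had a median of 0.15 over 16, with 10 above 0. Arhgef25, which links Gq to RhoA, was at 21.6 ± 1.79 CPM in KO and 32.4 ± 4.26 CPM in WT (-0.58, SE 0.15, edgeR adjusted p = 0.0848), while the protein kinase C gene Prkca was at 0.40 and the inositol trisphosphate receptor gene Itpr2 at 0.39. Arhgef25 was at -0.38, Prkca at 0.15 and Itpr2 at 0.18 with the composition correction. Of 13 other Gq-coupled receptors 5 were above 0 (median -0.08). The angiotensin receptor gene Agtr1a was at 36.3 ± 4.42 CPM in KO and 27.2 ± 4.52 CPM in WT, with overlap (0.41, SE 0.16, edgeR adjusted p = 0.182), and the sphingosine phosphate receptor genes S1pr2 and S1pr3 were at -0.60 and -0.56. S1pr2 was at -0.38 without WT replicate 2 and S1pr3 at -0.26 without WT replicate 1. Other sensors of cyclic AMP had a median of -0.18 over 7, with Rapgef3 at -0.35, Popdc2 at -0.20 and the pacemaker channel gene Hcn4 at 0.37. Rapgef3 was at -0.19 and Popdc2 at -0.05 with the composition correction, and Hcn4 was at 0.14 without WT replicate 2. CREB factors and response genes had a median of 0.01 over 15; the nuclear receptor gene Nr4a3 was at 2.65 ± 0.191 CPM in KO and 1.30 ± 0.215 CPM in WT (1.01, SE 0.27, edgeR adjusted p = 0.0956), Sik1 was at 0.60 and Ppargc1a at 0.38 (0.08 with the correction).

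WT replicate 2, the library with activated fibroblast markers, bore on the calls of these pathway genes. Without it 18 of the 38 named here were below the threshold in edgeR's test, and 13.8% of all genes were. The 38 were picked from their lists by small p-values in these same libraries, so the shares cannot be compared. The muscle substrates of protein kinase A and the Gq genes among them were Rrad (-1.07, edgeR adjusted p = 0.00668), Ryr2 (0.78, 0.013), Hspb6 (-0.56, 0.00971), Arhgef25 (-0.68, 0.00938), Prkca (0.48, 0.0421) and S1pr3 (-0.78, 0.00975), each with its difference and edgeR adjusted p. Other genes of the cyclic AMP branch among the 18 were Adcy4 (-0.67, 0.021), Pkia (0.51, 0.0331), Akap9 (0.71, 0.00844), Akap11 (0.69, 0.0107), Akap6 (0.53, 0.017), Pde7b (0.62, 0.0237), Pde7a (0.73, 0.0106), Rapgef3 (-0.48, 0.0474) and Sik1 (0.81, 0.0312), on the same measures. Gng7 (1.47, 0.0311), Gnb2 (-0.51, 0.0193) and Rgs5 (0.68, 0.0225) completed the 18. With all libraries kept, DESeq2 called 7 of the 38 and 4.62% of all genes, again not comparable because of that choice. The 7 were Gng7, Akap9, Pde7b, Pde3a, Rrad (adjusted p = 0.000616), Ryr2 and Arhgef25. None of the 38 passed with the composition correction in edgeR.

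**Figure D5:**
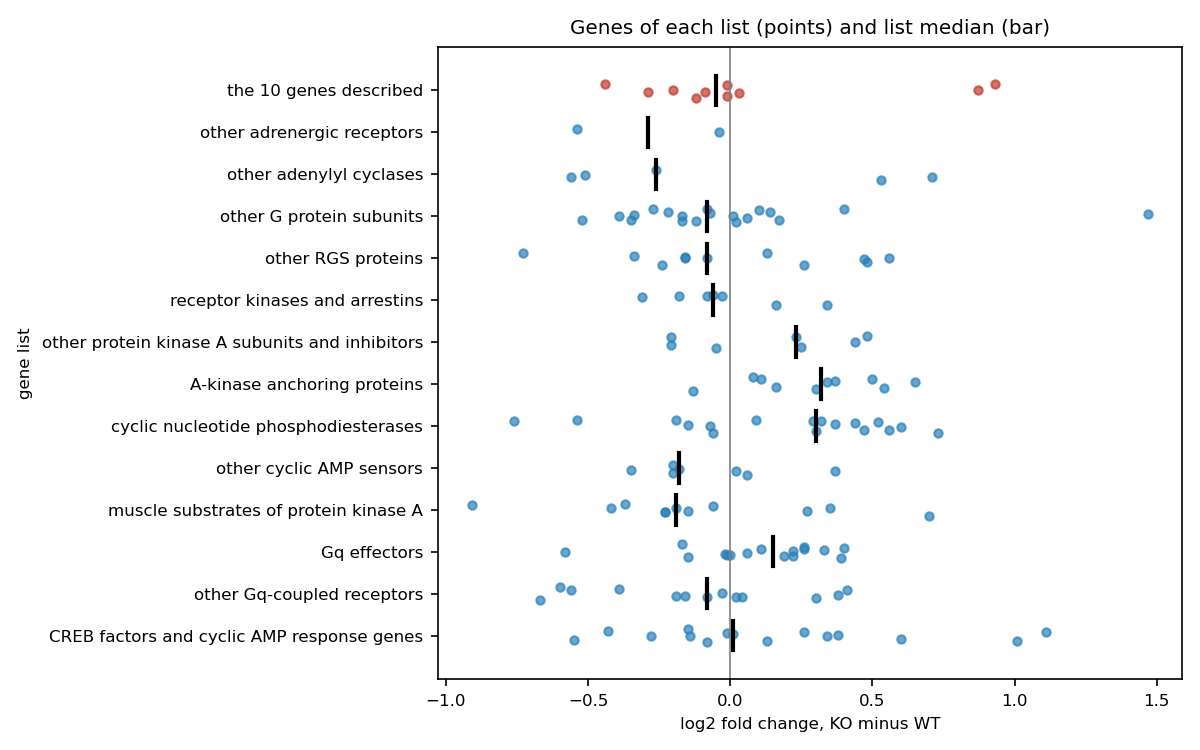
Log2 fold change, KO minus WT (horizontal axis), of each gene (points) in the 10 genes described, top row, and in the 13 pathway lists, with the list median as a bar. Adra1a and Rgs2 stand to the right of the other 8 genes; the A-kinase anchoring proteins and phosphodiesterases have the highest medians without the composition correction, 0.32 and 0.30.

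Transcript GC content moved with the difference over all genes. The median difference was 0.20 in the fifth of genes with the lowest GC content and -0.24 in the fifth with the highest. Rgs2, at 43.6%, had the lowest GC content of the 10 genes and Adcy5, at 59.5%, the highest, with Adra1a in the middle at 50.1%. Markers of other cells were also compared, as fewer cells of a type and less RNA per cell cannot be told apart in bulk tissue. Ventricular muscle markers summed to 55100 to 65900 CPM in KO and 55400 to 73600 CPM in WT (7 of 7 measured), with overlap. The 4 smooth muscle markers summed to 121 to 167 CPM in KO and 170 to 257 CPM in WT, narrowly apart, and all 4 were below 0. The 5 macrophage markers summed to 144 to 180 CPM in KO and 115 to 125 CPM in WT, and all 5 were above 0. Sums were also lower in every KO library for 3 atrial markers (32.7 to 42.3 CPM in KO and 48.5 to 753 CPM in WT). The same held for 3 mesothelial markers (11.3 to 16.2 CPM in KO and 17.7 to 41.5 CPM in WT), but among them Wt1 was at 0.15, with overlap. Sums overlapped between the groups for fibroblast, activated fibroblast, endothelial, pericyte, Schwann and neuronal, adipocyte and red blood cell markers. In the smooth muscle list only the contractile gene Acta2 (-0.75) was without overlap between groups. The same held in the macrophage list for the scavenger receptor gene Cd163 (0.91) alone. Single markers without overlap also came from lists whose sums overlapped. These were Meox1 (-1.03), Tcf21 (-0.68), Kcnj8 (-0.42), Rgs5 (0.47) and Ttn (0.43). The lowest deposited count was 12, so no measured marker could be at 0 in any library. The part of these cell types in the values of Rgs2, Adra1a and Adcy5 was not tested. With the composition correction these were at 0.76, 0.91 and -0.29.

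In GRCm38 each of the 10 genes is annotated as protein-coding, and a value covers all reads assigned to the gene. Adra1a lies at chr14:66635251-66771168, Rgs2 at chr1:143999338-144004161, Adcy5 at chr16:35154877-35305738 and Gnas at chr2:174284320-174346744. Adrb1 lies at chr19:56722199-56733113 and Gnaq on the same chromosome at chr19:16132831-16387463. Adra1b lies at chr11:43774606-43901210, Gna11 at chr10:81528724-81545190, Adcy6 at chr15:98589973-98610076 and Prkaca at chr8:83972993-83996443.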

How the data were processed

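The authors deposited whole-number counts per gene for 6 libraries, 3 KO and 3 WT. The labels number the samples of a genotype but do not say that each came from its own mouse, so p-values measure the spread between these samples. Per the submitters' processing notes the build was mm10 and DESeq2 was among the tools, with no version. How reads were aligned, counted, assigned to strands and filtered is not given in the sources used here, nor is the annotation. The lowest count was 12, so genes low in a library may be missing.

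The fit to the counts was edgeR 4.0.16 under R 4.3.3 (quasi-likelihood, robust, TMM, filterByExpr, which removed 0 genes), KO against WT without covariates, two-sided, Benjamini-Hochberg over 13384 genes, threshold 0.05. DESeq2 1.42.0 and limma-voom (3.58.1) were alternatives. Log2 CPM used a prior count of 2. GC content and length came from the longest GENCODE M21 transcript, found for 94.2% of genes, and trends were splines with 4 degrees of freedom. The procedure was tested on simulated data. edgeR's common coefficient of variation between libraries was 0.166, larger than counting error at the 232 or more counts of the 10 genes.

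Some pathway genes are not reported here. Members and lists were chosen with earlier results of these data known. All members are named; of each list, up to 3 genes of smallest p, of 5 profiles nearest Rgs2 all, and of those nearest other members that of Adra1a. Same-numbered libraries were checked for pairing, and their deviations did not correlate positively, which cannot settle whether the libraries are paired.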

Additional observations from a re-analysis of the deposited data

How the results depend on the processing

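Over 18 alternatives and 48 named genes, 796 differences kept their sign and side of the threshold, 37 newly passed it (20 without WT replicate 2, 9 in DESeq2, 6 with the replicate block), and 31 turned sign, none of them past it. All 24 pair ratios with 1 library left out kept their direction. The ratios were not computed with the GC content and length correction, with which Gnaq was at -0.17 and Gna11 at 0.12. Their order there was the reverse of the uncorrected ratio. Of the 10 genes, 2 were higher with DESeq2 (Adra1a, Rgs2), with the replicate block (the same genes; 1.07% of all genes) or at an unadjusted p of 0.05, with 1 lower (Adcy5) at that p. There was 1 higher with the GC content and length correction or at an adjusted p of 0.1 (Adra1a in both; 0.187% and 1.61% of all genes), and 0 to 1 higher and 0 to 1 lower with 1 library left out. Over all genes, 12 were higher and 3 lower. DESeq2 gave 352 and 266, the GC content and length correction 25 and 16, estimation without robustness 7 higher, the replicate block 143 and 92, the block with the correction 11 lower, and 1 library left out 0 to 982 and 0 to 869 (982 and 869 without WT replicate 2, 0 and 1 without KO replicate 1, 0 and 0 without KO replicate 3, 3 and 5 without WT replicate 1, 7 and 10 without WT replicate 3). edgeR's older quasi-likelihood method, chosen after seeing the data, gave 12 and 3. The labels do not say whether the numbers pair the libraries. Deviations of same-numbered libraries from their group means correlated at -0.121, -0.0759 and -0.149 over genes. With each group centred on its own mean of few libraries, these values cannot settle whether there is pairing.

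Signs turned with the correction alone and with the block added for Adrb1 (0.09 and 0.09), Adra1b (0.16 and 0.18), Gna11 (0.12 and 0.12), Prkaca (0.07 and 0.07), Adra1d (0.02 and 0.10), Adra2b (0.05 and 0.06), Grk2 (0.02 and 0.01) and Akap6 (-0.0042 and -0.0041). Adra1b was at 0.04 in limma-voom and 0.04 with the block alone. With 1 library left out the differences ran from -0.25 to 0.18 for Adra1b, -0.05 to 0.10 for Adcy6, -0.05 to 0.02 for Gnaq, -0.20 to 0.02 for Prkaca, -0.80 to 0.10 for Adra1d and -0.15 to 0.06 for Adra2b. The cause was not tested. Whether depth or the spread between libraries limited detection was not tested.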
